A study of Mus musculus with 12 samples.

Results

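Mptx1, Ang4, Retnlb, Retnla, Sycn, Pla2g2a and Reg3b encode secreted proteins with roles at mucosal surfaces or in secretory granules. These 7 genes are described here in bulk RNA sequencing of mouse colon, out of 991 genes listed in the deposited files. The members were chosen by their measured levels in DSS and Control colon, and the files of both groups hold almost only genes that differ between them, by a rule the labels do not state. The levels of the members in these groups are therefore given as a description, with no test. Mptx1, Ang4, Retnlb, Retnla and Sycn were listed for DSS and Control, with 912 genes in each file. Pla2g2a was listed in the BXD_H files, which hold 95 genes, and Reg3b in the BXD_L files, which hold 8. These 2 genes thus have no DSS or Control value, and the working name of the set, proteins lost in DSS, applies to at most the other 5.

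The study has 12 libraries, 3 in each of 4 groups. DSS mice received 2.5% dextran sulfate sodium, a standard agent for chemical colitis in mice, for 5 days and then water for 5 days, over 3 cycles, together with ddH2O. BXD_L and BXD_H mice had the same course and were also given Banxia Xiexin Decoction, a traditional mixture of several herbs, at 7.60 or 15.2 g/kg per day. Control mice received ddH2O alone. The labels used here give no strain, sex, age or number of mice per library, so the spread between libraries may be technical in part. The description text of Control replicate 3 names the DSS course and that of DSS replicate 3 the low decoction dose, against their titles, which were followed here. Values are FPKM, that is fragments per kilobase of gene, scaled to a library total of 1000000 fragments. The spacing of the values of short genes gave library totals of 15400000 to 19200000 fragments for DSS and 14400000 to 16700000 for Control. In bulk tissue, fewer cells of a type and less RNA per cell cannot be told apart.

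The colon surface is guarded by proteins that epithelial and immune cells release into the mucus. Goblet cells make the mucus and, with Paneth cells of the small intestine, secrete small proteins that bind or kill bacteria. Several of these genes are known to be switched on by type 2 cytokines that act through STAT6, or by contact with microbes. Ang4 is a ribonuclease of the angiogenin family that kills bacteria. Retnlb, or RELM beta, is a goblet cell product that kills Gram-negative bacteria and is known from worm infection. Retnla, or RELM alpha, is best known from macrophages activated by type 2 cytokines. Mptx1 is a mucosal pentraxin, a relative of C-reactive protein. Sycn encodes syncollin, known from zymogen granules of the pancreas. Pla2g2a is a secreted phospholipase that attacks bacterial membranes, and Reg3b is a lectin that binds bacteria and is induced by interleukin 22.

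Both mucosal pentraxin genes lie on chromosome 1 of mm10, 1052740 bases apart, and Retnlb, Retnla and Retnlg stand in a row on chromosome 16. The windows around the start sites of 2 pairs of relatives are shown because Mptx1 and Mptx2 were both lower in DSS while Retnla and Retnlg differed in opposite directions. They hold 250 bases before and 50 after the start and come from RefSeq (GRCm38.p6), in which 5 of the 7 members were matched. Mptx1 is read from the plus strand at chr1:174330268-174330567, Mptx2 from the minus strand at chr1:173277707-173278006, Retnla from the plus strand at chr16:48842359-48842658 and Retnlg from the plus strand at chr16:48872358-48872657. Capitals mark the longest run of identical bases shared by a pair.
Mptx1: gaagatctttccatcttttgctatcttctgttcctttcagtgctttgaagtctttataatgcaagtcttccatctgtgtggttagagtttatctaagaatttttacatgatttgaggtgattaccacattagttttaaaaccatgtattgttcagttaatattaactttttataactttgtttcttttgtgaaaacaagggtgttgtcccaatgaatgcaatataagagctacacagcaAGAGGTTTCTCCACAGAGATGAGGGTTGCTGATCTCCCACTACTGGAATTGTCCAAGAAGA
Mptx2: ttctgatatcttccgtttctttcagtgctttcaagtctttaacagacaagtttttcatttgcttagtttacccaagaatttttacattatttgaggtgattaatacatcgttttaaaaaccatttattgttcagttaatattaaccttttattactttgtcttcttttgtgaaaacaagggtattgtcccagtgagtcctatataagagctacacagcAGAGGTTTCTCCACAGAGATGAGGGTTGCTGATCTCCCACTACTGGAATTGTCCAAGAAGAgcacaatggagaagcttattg
Retnla: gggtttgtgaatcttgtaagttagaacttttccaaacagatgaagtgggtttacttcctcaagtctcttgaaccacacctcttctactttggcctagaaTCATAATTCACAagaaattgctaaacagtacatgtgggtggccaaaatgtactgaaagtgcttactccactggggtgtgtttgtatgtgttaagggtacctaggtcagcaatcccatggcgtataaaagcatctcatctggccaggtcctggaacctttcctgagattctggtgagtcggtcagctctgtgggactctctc
Retnlg: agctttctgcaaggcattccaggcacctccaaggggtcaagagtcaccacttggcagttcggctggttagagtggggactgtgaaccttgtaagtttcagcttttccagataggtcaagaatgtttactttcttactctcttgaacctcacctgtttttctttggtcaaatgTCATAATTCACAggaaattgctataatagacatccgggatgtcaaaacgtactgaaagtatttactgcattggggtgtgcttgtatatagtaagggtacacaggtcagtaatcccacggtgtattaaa

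The Mptx1 and Mptx2 windows were 88.8% identical over 278 aligned bases and shared a run of 61 bases. The Retnla and Retnlg windows were 79.1% identical over 225 aligned bases, with a longest shared run of 12 bases. The windows of the members, of Mptx2 and of Retnlg were searched on both strands for 4 motifs of factors or start site elements. The STAT6 motif, a palindrome with a gap of 4 bases, occurred once in Retnla, at position −145 from the start site at 0, and once in Retnlg, at −72. Both matches begin at the same base of the shared run of 12 bases, which starts at −151 in Retnla and −78 in Retnlg. Their positions thus depend on the start sites annotated. This motif occurs in 7.0% of 32851 mouse windows of this kind and in no other window searched here. The TATA box letters TATAAA were found on the coding strand of Retnla at −30 and of Reg3b at −29, and in Mptx1 on the other strand, against 13.6% of all windows. A site of GATA factors, AGATAA, was found in Sycn and Mptx1 and occurs in 11.2% of all windows. A site of CDX factors, TTTATG, was found in Reg3b and occurs in 11.9% of all windows. A match is a description of the letters and no evidence of binding.

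Mptx1 and Ang4 had the lowest DSS to Control ratios of mean FPKM among all 912 listed genes, Ang4 first and Mptx1 second. The other 3 were lower in mean by 5.63 to 18.0 times. In 4 of the 5 members the 3 DSS libraries all lay below the 3 Control libraries, and Retnlb was the exception. That separation held for 17.8% of the 912 listed genes, and since the members were chosen on this contrast nothing is read from the count. All 5 passed a filter of at least 1 FPKM in 3 of the 6 libraries, Ang4 and Retnla only with their Control values.

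**Figure D1:**
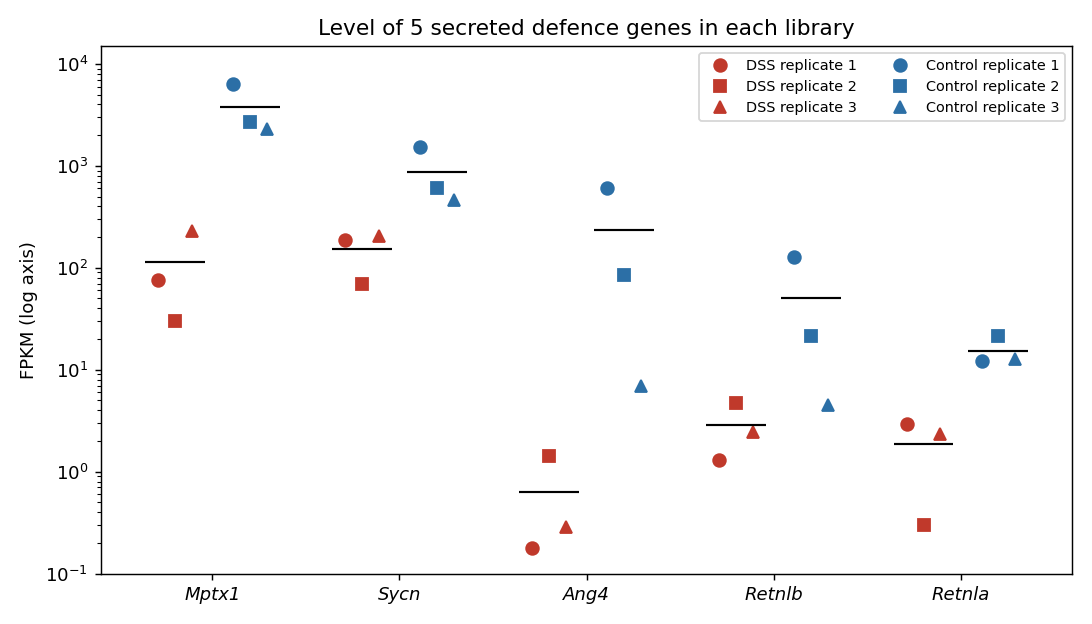
FPKM of 5 genes (log axis) in each DSS library (red) and each Control library (blue), with marker shape giving the replicate and bars the group mean. The groups overlap for Retnlb alone, where DSS replicate 2 (4.75 FPKM) lies above Control replicate 3 (4.52 FPKM).

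Mptx1 (ENSMUSG00000026531, 2 exons, chromosome 1 from 174330518 to 174332873, plus strand) had 76.5, 29.8 and 231 FPKM in DSS replicates 1 to 3, against 6404, 2711 and 2312 FPKM in Control replicates 1 to 3. Every DSS library lay far below every Control library, and the lowest DSS library was replicate 2. The means were 113 ± 106 FPKM in DSS and 3809 ± 2256 FPKM in Control (SD, n = 3 each), a difference of −5.38 on the log2(FPKM + 1) scale (SE 0.70 from limma). Here and below, SEs are moderated by limma toward a trend over the 572 genes that passed the filter. The members vary more between libraries than the median of those genes, so these SEs are smaller than their own spread would give. By mean FPKM it had rank 38 of 912 genes in DSS and rank 2 in Control. Given its exon length of 799 bases, its fragments made up 0.00611, 0.00238 and 0.0185% of the DSS libraries and 0.512, 0.217 and 0.185% of the Control libraries. The lowest DSS library still held about 395 fragments of it.

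Sycn (ENSMUSG00000084174, 2 exons, chromosome 7 from 28540885 to 28542209, plus strand) had 187, 69.9 and 204 FPKM in DSS replicates 1 to 3 and 1528, 600 and 465 FPKM in Control replicates 1 to 3. The groups did not overlap, yet the gene stayed among the more abundant ones, at rank 27 of 912 in DSS and rank 4 in Control. Its means were 154 ± 73.1 FPKM in DSS and 864 ± 579 FPKM in Control (SD, n = 3 each), so DSS stood at 17.8% of Control, with a difference of −2.43 on the log2(FPKM + 1) scale (SE 0.56). None of 18 pancreatic acinar markers was among the 912 genes, and their levels were not analysed here.

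Ang4 (ENSMUSG00000060615, 2 exons, chromosome 14 from 51763878 to 51773590, minus strand) had 0.18, 1.44 and 0.29 FPKM in DSS replicates 1 to 3 and 608, 84.5 and 6.87 FPKM in Control replicates 1 to 3. The 3 DSS libraries were near zero, with about 1.97, 16.9 and 3.95 fragments, whereas the Control libraries differed among themselves by 88.6-fold. Its means were 0.637 ± 0.698 FPKM in DSS and 233 ± 327 FPKM in Control (SD, n = 3 each), and the log2(FPKM + 1) difference was −5.58 (SE 1.24). Leaving out Control replicate 1 made that difference −4.07, and leaving out Control replicate 3 made it −7.20. The mean was 366 times lower in DSS, and this ratio rests largely on Control replicate 1.

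Retnlb (ENSMUSG00000022650, 4 exons, chromosome 16 from 48816856 to 48818892, plus strand) had 1.30, 4.75 and 2.47 FPKM in DSS replicates 1 to 3 and 127, 21.4 and 4.52 FPKM in Control replicates 1 to 3. The highest DSS library and the lowest Control library overlapped, so a loss was not seen in all libraries. Means were 2.84 ± 1.75 FPKM in DSS and 51.1 ± 66.6 FPKM in Control (SD, n = 3 each), with a difference of −2.81 on the log2(FPKM + 1) scale (SE 0.93). Without Control replicate 1 the difference was −1.63, and without Control replicate 3, one of the 2 libraries of conflicting description, it was −3.90. With both libraries of conflicting description left out, all 5 members had their DSS libraries below their Control libraries, as did 18.9% of the 912 genes. The differences were then −6.41 for Mptx1, −7.07 for Ang4, −3.88 for Retnlb, −2.93 for Retnla and −3.06 for Sycn.

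Retnla (ENSMUSG00000061100, 4 exons, chromosome 16 from 48842551 to 48844461, plus strand) had 2.92, 0.30 and 2.35 FPKM in DSS replicates 1 to 3 and 12.2, 21.5 and 12.7 FPKM in Control replicates 1 to 3. The groups did not overlap, and the Control libraries spanned 1.76-fold. Means were 1.86 ± 1.38 FPKM in DSS and 15.4 ± 5.22 FPKM in Control (SD, n = 3 each), with a difference of −2.63 on the log2(FPKM + 1) scale (SE 0.42). DSS replicate 2 held about 2.98 fragments of it, and with a pseudocount of 0.1 in place of 1 the difference was −3.38.

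**Figure D2:**
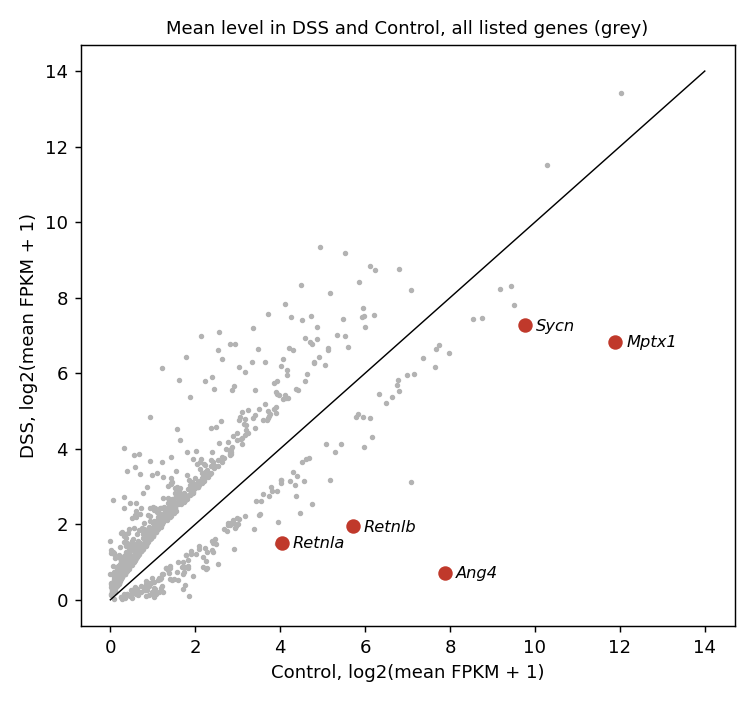
Mean level in DSS (vertical axis) against Control (horizontal axis) on the log2(FPKM + 1) scale for the 912 listed genes in grey, with 5 members in red and the line of equal means. All 5 lie below the line, Ang4 (0.637 FPKM in DSS, 233 in Control) farthest from it. Few listed genes lie along the line.

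FPKM is a level per length, so the members can be ranked within a library. In DSS replicates 1 and 2 Sycn was highest and Mptx1 second, and in DSS replicate 3 Mptx1 led Sycn by 231 to 204 FPKM. In all 3 Control libraries Mptx1 was highest and Sycn second. Ang4 was the lowest of the 5 in DSS replicates 1 and 3 and lay above Retnla alone in DSS replicate 2. It came next after Sycn in Control replicates 1 and 2 and lay below Retnla in Control replicate 3. Across Control libraries Mptx1 and Sycn did not overlap, while Sycn and Ang4, Ang4 and Retnlb, and Retnlb and Retnla did.

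The spread between libraries of a group differed widely among the members. On the log2(FPKM + 1) scale, the SD between DSS libraries was 1.46 for Mptx1 (rank 15 of 912 genes), 0.86 for Retnla, 0.85 for Sycn, 0.66 for Retnlb and 0.57 for Ang4. Between Control libraries it was 0.79 for Mptx1 (rank 28), 0.43 for Retnla (rank 97), 0.90 for Sycn (rank 18), 2.27 for Retnlb (rank 3) and 3.14 for Ang4, the highest of all. Ang4 and Retnlb thus varied more in Control than in DSS, and Mptx1 and Retnla more in DSS. The median SD over the listed genes was 0.25 in DSS and 0.16 in Control, and over those that passed the filter it was 0.32 in DSS and 0.20 in Control. Low genes have small SDs on this scale, and with a pseudocount of 0.1 the SD of Ang4 in DSS was 1.30. With that pseudocount the SD of Retnla in DSS was 1.60, above that of Mptx1 at 1.48, so which member varied most in DSS depends on the pseudocount.

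**Figure D3:**
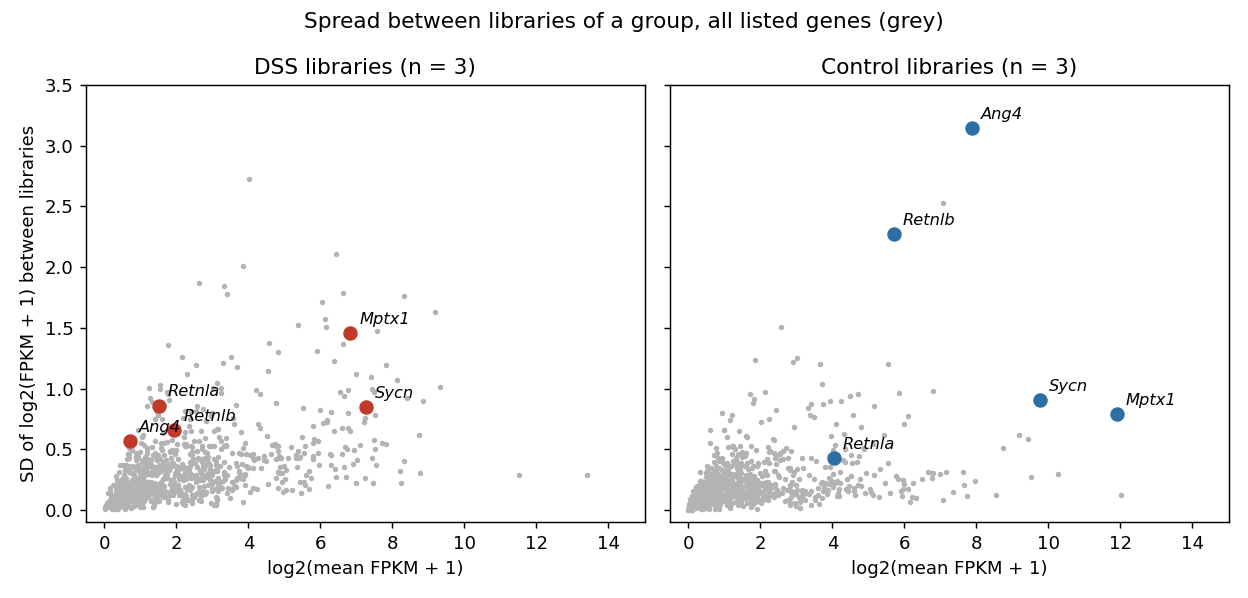
SD of log2(FPKM + 1) between the 3 libraries of a group (vertical axis) against the mean level (horizontal axis) for the 912 listed genes in grey, DSS on the left and Control on the right, with 5 members in colour. On this scale Mptx1 (1.46) has the highest SD of the members in DSS, which does not hold with a pseudocount of 0.1. Ang4 (3.14) and Retnlb (2.27) stand high in Control.

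The members showed different patterns between libraries. Mptx1, Sycn, Ang4 and Retnlb were all highest in Control replicate 1, as were 28.7% of the 181 listed genes with a lower mean in DSS, and all 4 were lowest in Control replicate 3, as were 17.1% of those genes. Retnla was highest in Control replicate 2 and lowest in replicate 1. Within DSS, Mptx1, Sycn and Retnla were lowest in replicate 2, as were 63.5% of those 181 genes, whereas Ang4 and Retnlb were highest in that library, as were 16.6%. The 5 listed absorptive colonocyte markers (Car4, Saa1, Slc20a1, Slc26a3 and Slc51b) summed to 599, 283 and 690 FPKM in DSS replicates 1 to 3 and 1137, 1517 and 1810 FPKM in Control replicates 1 to 3. The sum was thus lowest in DSS replicate 2, and in each group it was highest in replicate 3, the library of conflicting description. Control replicate 3 was the highest Control library for 4 of the 5 markers, and Control replicate 1 for Slc51b. DSS replicate 3 was the highest DSS library for 2 of the 5, and DSS replicate 1 for the other 3. The part of these differences between libraries in the members' values was not tested.

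The likeness of within-group patterns was measured as the root mean square difference of log2(FPKM + 1) deviations from the group means over the 6 libraries. The gene most like Ang4 among the 572 genes that passed the filter was Retnlb, at 0.55, set against a root mean square deviation of 1.84 for Ang4 itself. The next were the immunoglobulin segments Ighv5-9-1 (0.79), Ighv1-54 (1.08), Ighv8-8 (1.30) and Igkv1-110 (1.35), whose single values are uncertain because near-identical segments can share reads. The genes most like Mptx1 were Ighv1-22 (0.40), Gm21885 (0.48), Sycn (0.48), Ighv1-52 (0.52) and a further segment of the Ighv1 family (0.53), against a deviation of 0.96 for Mptx1. Mptx1 and Ang4 differed by 1.80.

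Ratios of genes within a library do not depend on the library total. Mptx1 over Sycn was 0.409, 0.427 and 1.13 in DSS replicates 1 to 3 and 4.19, 4.52 and 4.98 in Control replicates 1 to 3. In Control the ratio varied by 1.19-fold while Mptx1 itself varied by 2.77-fold and Sycn by 3.29-fold, so these genes kept nearly the same proportion from library to library. Ang4 over Retnlb was 0.138, 0.303 and 0.117 in DSS and 4.77, 3.95 and 1.52 in Control, with no overlap although Retnlb alone overlapped. Retnlb over Retnla was 0.445, 15.8 and 1.05 in DSS and 10.5, 0.997 and 0.357 in Control, so the neighbours on chromosome 16 kept no common proportion in either group.

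**Figure D4:**
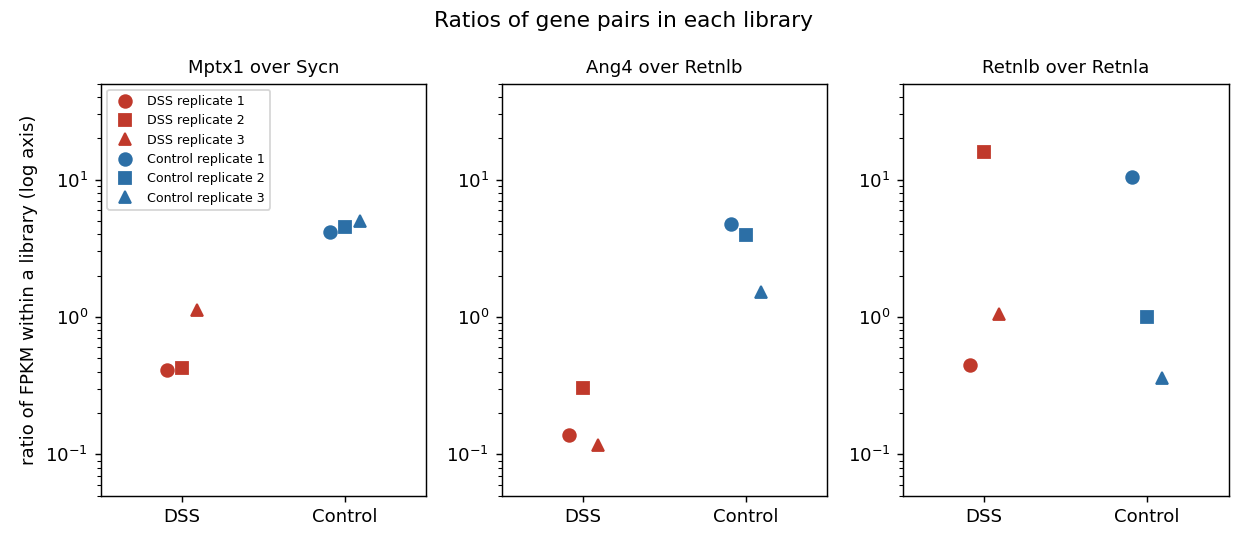
Ratio of FPKM within each library (log axis) for 3 gene pairs, DSS libraries in red and Control libraries in blue, with marker shape giving the replicate. Mptx1 over Sycn is 0.409 to 1.13 in DSS and 4.19 to 4.98 in Control, and Retnlb over Retnla overlaps between the groups.

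The relatives of the members in the same files were both lower and higher in DSS. Mptx2, a pentraxin of Paneth cells, had 0.08, 0 and 0.07 FPKM in DSS and 1.66, 0.83 and 0.62 FPKM in Control, the same order of Control libraries as Mptx1. Its level was 0.105, 0 and 0.0302% of that of Mptx1 in DSS and 0.0259, 0.0306 and 0.0268% in Control. The transcripts of the pair are 92.4% identical and share a run of 112 bases, and the labels do not tell how reads that match both were counted, so the low Mptx2 values are uncertain. Of 10 relatives of resistin and angiogenin looked for, Retnlg alone was in the files, and none of 7 phospholipases or 6 Reg genes besides the members was. Retnlg, a resistin-like gene known from neutrophils, lies 28159 bases beyond Retnla, which itself lies 23658 bases beyond Retnlb. It had 5.8, 8.92 and 2.20 FPKM in DSS and 0.35, 0.20 and 0.21 FPKM in Control, so it was higher in every DSS library while its neighbours had lower means. It was also listed for BXD_H, with 9.50, 64.5 and 226 FPKM in replicates 1 to 3. Transcript identity was 84.5% between Retnla and Retnlg, 77.1% between Retnlb and Retnlg and 74.6% between Retnlb and Retnla, with shared runs of at most 49 bases. Ang4 shares 90.2% of its aligned transcript and a run of 79 bases with Ang5, which is not among the listed genes.

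**Figure D5:**
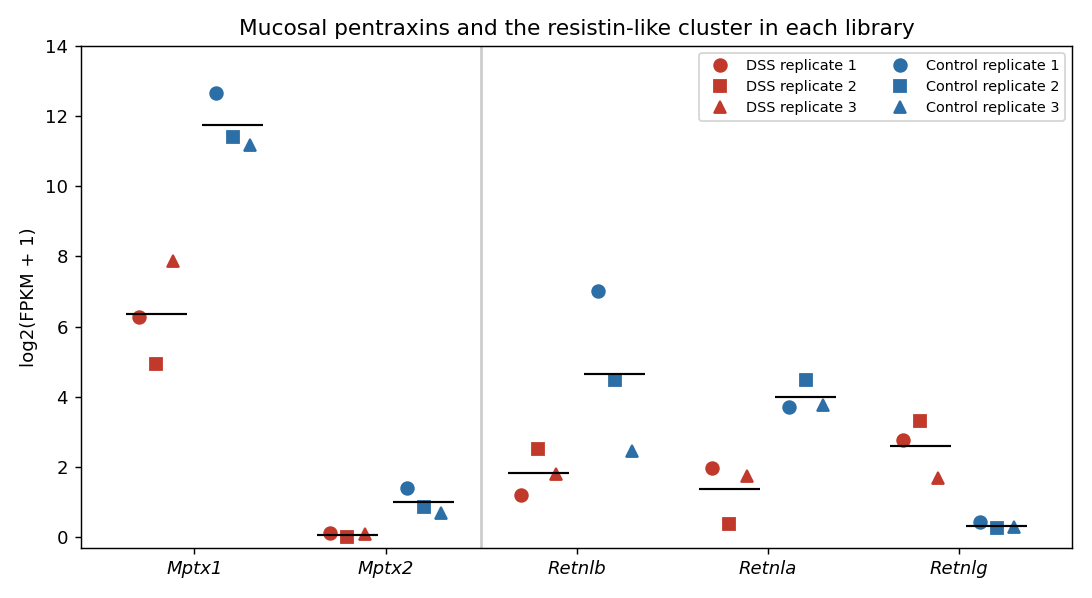
Level of both mucosal pentraxins (left of the line) and of 3 resistin-like genes of chromosome 16 in gene order (right of the line) on the log2(FPKM + 1) scale, DSS in red and Control in blue, with bars at the mean of the log values. Retnlg is higher in all 3 DSS libraries (2.20 to 8.92 FPKM) than in Control (0.20 to 0.35 FPKM), opposite to Retnla.

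Other genes of mucosal defence, together with 19 genes of signals known to induce them, were taken from a list of 123 genes besides the members. Of these 123, 20 were among the 912 listed genes and 13 passed the filter, of which 5 fell and 8 rose in DSS by limma with Benjamini-Hochberg adjustment. Retnlg, Saa3 and S100a8, which rose, passed the filter only through their DSS values, so nothing is read from their calls or their part in the median. Over all 572 genes tested, 20.1% fell and 79.5% rose, so nearly every listed gene that was tested passed, and passing does not set the list apart. Whether its split of 5 and 8 among 13 differs from that over all genes was not tested. The median log2 difference of the list was 1.53, beside 0.96 over all tested genes and −2.81 over the 5 members.

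The genes that fell were Saa1, a serum amyloid A protein that epithelium also makes, Wfdc2, a secreted WAP domain protein of epithelia, and the gasdermin genes Gsdmc2, Gsdmc3 and Gsdmc4. Wfdc2 had 35.7, 32.2 and 40.6 FPKM in DSS and 72.1, 91.3 and 102 FPKM in Control, and Gsdmc4 had 139, 144 and 237 FPKM in DSS and 407, 346 and 353 FPKM in Control. The differences were −1.26 (SE 0.32) for Wfdc2 and −1.13 (SE 0.35) for Gsdmc4 on the log2(FPKM + 1) scale, smaller than those of the 5 members. Saa1 is also on the list of absorptive colonocyte markers. Without Control replicate 3, Saa1 (−0.99, limma adjusted p = 0.062) and Gsdmc2 (−0.99, limma adjusted p = 0.0599) did not pass, and Gsdmc2 also missed without Control replicate 2 (−0.91, limma adjusted p = 0.0696) or DSS replicate 1 (−0.88, limma adjusted p = 0.0767). Almost all listed genes differ between the groups, so these adjusted p-values mark a threshold and are no evidence about single genes.

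The genes that rose were Slpi, Wfdc17 and Wfdc18 of the WAP family of protease inhibitors, Nos2, the inducible nitric oxide synthase, the neutrophil protein gene S100a8, Saa3, Lbp, which binds bacterial lipopolysaccharide, and Retnlg. Wfdc18 had 13.9, 33.3 and 19.0 FPKM in DSS and 1.65, 2.26 and 1.97 FPKM in Control, a log2(FPKM + 1) difference of 2.88 (SE 0.32). S100a8 had 2.90, 24.4 and 1.5 FPKM in DSS and 0.40, 0.26 and 0.27 FPKM in Control. The groups did not overlap for either gene, and DSS replicate 2 was the highest library for both. When each library was centred on the median of the listed genes, which moved all differences by −0.65, S100a8 (1.62, limma adjusted p = 0.106), Saa3 (1.08, limma adjusted p = 0.101) and Lbp (0.16, limma adjusted p = 0.42) did not pass. On that scale 117 genes fell and 113 rose, and all 5 members stayed lower, with differences of −3.08 for Sycn to −6.23 for Ang4.

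None of 24 goblet cell and mucus genes was among the 912 listed genes, so no goblet cell level can be set beside that of Retnlb. Of 8 Paneth cell markers Mptx2 was listed. Of 15 Paneth cell genes on the defence list, which overlaps those markers, Mmp7, a protease that activates defensins, was listed, with 0.12, 3.04 and 1.03 FPKM in DSS and 0, 0 and 0.12 FPKM in Control, opposite in direction to Mptx2, and like Mptx2 it did not pass the filter. Of 5 tuft cell markers 3 were listed (Sh2d6, Trpm5 and Pou2f3), and their sum was 1.27 to 1.99 FPKM in DSS and 4.16 to 6.59 FPKM in Control. Of 9 markers of macrophages activated by type 2 cytokines 3 were listed (Arg1, Chil3 and Pdcd1lg2), and their sum was 1.64 to 6.17 FPKM in DSS and 0.36 to 0.73 FPKM in Control, the direction opposite to Retnla. All 3 are low and missed the filter, and the highest sum is that of DSS replicate 2, where Arg1 had 4.4 FPKM. None of the listed tuft or macrophage markers was at 0 in any library. Of 12 absorptive colonocyte markers 5 were listed, and all 5 fell, as did 20.1% of the 572 genes tested. Saa1, one of these 5, is also counted among the defence genes that fell. Of 7 eosinophil markers Ccr3 was listed, at 0.19 to 0.36 FPKM in DSS and 0.02 to 0.04 FPKM in Control. Of 7 adipose markers Lep was listed, at 0 to 0.20 FPKM in DSS and 0.25 to 0.51 FPKM in Control. Of 8 small intestine markers Fabp6 was listed, at 1.76 to 2.39 FPKM in DSS and 2.76 to 5.66 FPKM in Control. The part of these cell types in the members' values was not tested.

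Pla2g2a (ENSMUSG00000058908, chromosome 4 from 138831857 to 138835186, plus strand) had 20.4, 26.7 and 23.5 FPKM in BXD_H replicates 1 to 3, with a mean of 23.5 ± 3.14 FPKM (SD, n = 3). Its libraries lay within 1.31-fold of each other, a narrower range than any of the other 6 genes had in any group. About 326 fragments in replicate 1 and 270 in replicate 3 stood behind these values, and no total could be had for replicate 2. GENCODE classes it as a polymorphic pseudogene, some inbred strains are known to carry a broken copy, and RNA levels do not show which form the mice had. Car1, a carbonic anhydrase of absorptive colonocytes, was listed in the same files with 373, 455 and 376 FPKM. No fold change can be given for Pla2g2a, since its DSS and Control levels were not analysed here.

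Reg3b (ENSMUSG00000071356, chromosome 6 from 78370657 to 78373466, plus strand) had 0.43, 0.26 and 0.18 FPKM in BXD_L replicates 1 to 3, with a mean of 0.29 ± 0.128 FPKM (SD, n = 3). All 3 values were low. No library total could be had for BXD_L, but at totals like those of the other groups, 12400000 to 19200000 fragments, its lowest library would rest on 2.55 to 3.95 fragments and its highest on 6.09 to 9.43. Counts this small leave the order of the 3 libraries, which span 2.39-fold, unresolved.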

How the data were processed

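RNA from mouse colon was extracted with TRIzol and made into libraries with an NEBNext Ultra kit for RNA, according to the labels' protocols. FastQC, bcl2fastq, fastp and the build mm10 are named in the submitters' processing notes. The aligner, the counter, its use of strand, the annotation and the rule that selected the listed genes could not be read from the labels or headers and are not stated here. Each deposited file holds FPKM to 2 decimals, computed by the authors, per the file headers.

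The members and gene lists were chosen with earlier results of these data known. Groups were taken from the sample titles. Levels were analysed as log2(FPKM + 1), with a pseudocount of 1. Genes with at least 1 FPKM in 3 or more of the 6 DSS and Control libraries (572 of 912) were fitted with limma 3.58.1 in R 4.3.3, with 1 mean per group, a trended spread and two-sided Benjamini-Hochberg adjusted p-values at a threshold of 0.05. The script was tested on simulated data. No p-value is given for a member. Almost all listed genes differ between the groups, so the adjusted p-values of other genes only mark the threshold. No count test was run, since FPKM are not counts.

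Library totals were estimated from the values above 0 of genes shorter than 1200 bases. Totals between 5000000 and 30000000 fragments were scored by the share of values that were whole fragments, corrected for the share expected by chance. The tolerance followed the rounding of the values and was at most 0.2 fragments. Totals were kept where at least 75% of values were whole. This gave 8 totals, with 80.8 to 94.1% of values whole, a share that includes values whole by chance. They serve only to describe depth, and multi-mapped reads or a different gene length would change the fragment numbers. No pair of libraries of a group shared more than 25 of 912 values, so none were merged.

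Gene positions and exon lengths are from GENCODE M21, which matched 981 of 991 listed genes, and start site windows are from RefSeq (GRCm38.p6). Protein sequences were not used here. Besides the members, the genes named were the 5 closest in within-group pattern to Ang4 and to Mptx1, relatives of the members and genes of the defence and cell type lists. Pairs of same-numbered libraries had correlations of −0.051, 0.022 and 0.08 over 572 genes, so the numbers were not taken as pairs. Alternatives were another pseudocount, no filter, centred libraries, a replicate block, and leaving out libraries.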

Additional observations from a re-analysis of the deposited data

How the results depend on the processing

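The direction of all 5 members' differences between DSS and Control held under each alternative run, and 49 of 50 values moved by less than the spread between replicates. That spread was each member's own, which is wide for Ang4 and Retnlb. A replicate block cannot change a difference in this balanced design, and centring moved every difference by −0.65. Since the members were chosen on this contrast, these figures are no support for it. The exception was Retnla, at −3.38 with a pseudocount of 0.1, against −2.63 with 1. Leaving out 1 library at a time gave −4.67 to −6.13 for Mptx1, −4.07 to −7.20 for Ang4, −1.63 to −3.90 for Retnlb, −2.14 to −2.93 for Retnla and −1.92 to −2.78 for Sycn. The SD with a pseudocount of 0.1 was 1.30 for Ang4 in DSS and 0.46 for Reg3b in BXD_L, against 0.57 and 0.14 with 1.

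Over all genes, 455 rose in DSS, against 113 with libraries centred and 714 with no filter, which tests more genes. In the defence list, 5 genes fell and 8 rose. With no filter 8 fell, and with libraries centred 5 rose. Leaving out 1 library gave 3 to 5 that fell and 5 to 8 that rose. Without both libraries of conflicting description, where the filter was set to 2 of the other 4 libraries, Saa1 did not pass (−0.99, limma adjusted p = 0.0783). The count that fell stayed at 5, because another gene of the list was tested only under that filter, and nothing is read from its call. Without any 1 DSS library Retnlg, Saa3 and S100a8 were untested, because all are under 1 FPKM in Control and the filter needs 3 libraries. With a replicate block 112 genes fell and 455 rose, against 115 and 455 without it, the members' differences kept their values, and the list kept its counts of 5 and 8. Not every library correlated best with the library of its own number. Fragment totals were not obtained for BXD_L and 1 BXD_H library, so the depth behind Reg3b is known only as a range.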
